A study of Mus musculus with 2 samples.

Results

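The cornified envelope genes of mouse tongue were compared between a library of circumvallate papillae (CvP) and a library of tongue epithelium without papillae (Epi). Members were the rows of the deposited gene table whose symbol began with Sprr or Lce and a digit, or was one of 15 named genes (*Lor*, *Ivl*, *Flg*, *Flg2*, *Rptn*, *Hrnr*, *Tchh*, *Tchhl1*, *Crnn*, *Crct1*, *Krtdap*, *Cdsn*, *Tgm1*, *Tgm3* and *Tgm5*). The rule found 48 rows with 46 distinct symbols among 18498 rows. *Flg*, the gene of filaggrin, had no row under its symbol. Both libraries came from mice of the strain C57BL/6J, with RNA of at least 20 mice pooled for each tissue. The paper states wild-type males aged 12 to 30 weeks for its RT-PCR of CvP RNA, and a normal chow diet for its mice in general. Its description of the sequencing does not repeat genotype, sex, age or diet. The study sequenced poly(A) RNA to find genes expressed at higher levels in CvP, the trench-walled taste papilla at the back of the tongue. With 1 pooled library per tissue there was no replicate, so no p-value was calculated and every difference is between these 2 libraries. Expression was given as RPKM, reads per kilobase of exon model and per 1000000 mapped reads.

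The cornified envelope is a layer of cross-linked protein that replaces the plasma membrane of a keratinocyte as it dies at the surface of a stratified epithelium. Transglutaminases join glutamine and lysine side chains of precursor proteins such as loricrin, involucrin, the small proline-rich proteins (Sprr) and the late cornified envelope proteins (Lce). Most of the precursors, and the S100-fused proteins of the filaggrin type that bundle keratin filaments, are encoded side by side in the epidermal differentiation complex. On the dorsal tongue, keratinized filiform papillae stand between softer parts of the epithelium.

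The depth read from the lowest values was 28362972 mapped reads in CvP and 27925909 in Epi. Over the 10363 rows with an RPKM of at least 1 in both libraries the median CvP/Epi ratio was 1.31 (log2 0.39), so the ratio of a member can be read against that shift. The tissue labels were checked against marker genes. All 10 taste cell markers were higher in CvP, with summed RPKM of 430.1 against 27.7. *Krt84* and *Krt36*, hard keratins of filiform papillae, were at RPKM 2.88 and 1.88 in CvP and 396 and 250 in Epi, although the Epi was labelled as free of papillae. Of 8 filiform and hard keratins, 5 passed an RPKM of 1, 4 of them higher in Epi and *Krt75* (614 in CvP, 6.82 in Epi) the other way, with summed RPKM of 836.4 in CvP and 6310.8 in Epi, and *Krt81* was at 0 in Epi. The Epi also had more of the skeletal muscle markers (9 of 9 past an RPKM of 1, summed RPKM 70.8 against 7.9), and the CvP more of the immune markers (8 of 8, 220.8 against 27.0). The 14 keratinocyte markers were divided, 6 higher in CvP and 8 in Epi. Their summed RPKM was 42749.8 in CvP and 87320.6 in Epi, higher in Epi as most members were. Most of this sum came from *Krt13* (17549 in CvP and 47815 in Epi) and *Krt4* (11801 and 22406). The serous gland markers (3 higher in CvP and 5 in Epi) summed to 1069.6 and 448.5, and the fibroblast markers (2 and 1) to 31.5 and 131.3. These lists differed between the same 2 libraries as the members did, and their part in the results was not tested.

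Cornified envelope genes were abundant in both tissues and most were higher in Epi. The 48 rows held 5.54% of the summed RPKM of the CvP and 9.13% of that of the Epi. Of the 100 highest rows of each library, 11 were members in CvP and 23 in Epi. In 44 rows the RPKM reached 1 in one library or both, and of these 34 (77.3%) were higher in Epi, against 21.8% of all 12549 rows past the same limit. The median log2 ratio of CvP to Epi over the 44 rows was -1.08, with 0.1 added to each RPKM, and that over all rows was 0.50. In such tissue samples, fewer cells of a type and less RNA per cell cannot be told apart.

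**Figure D1:**
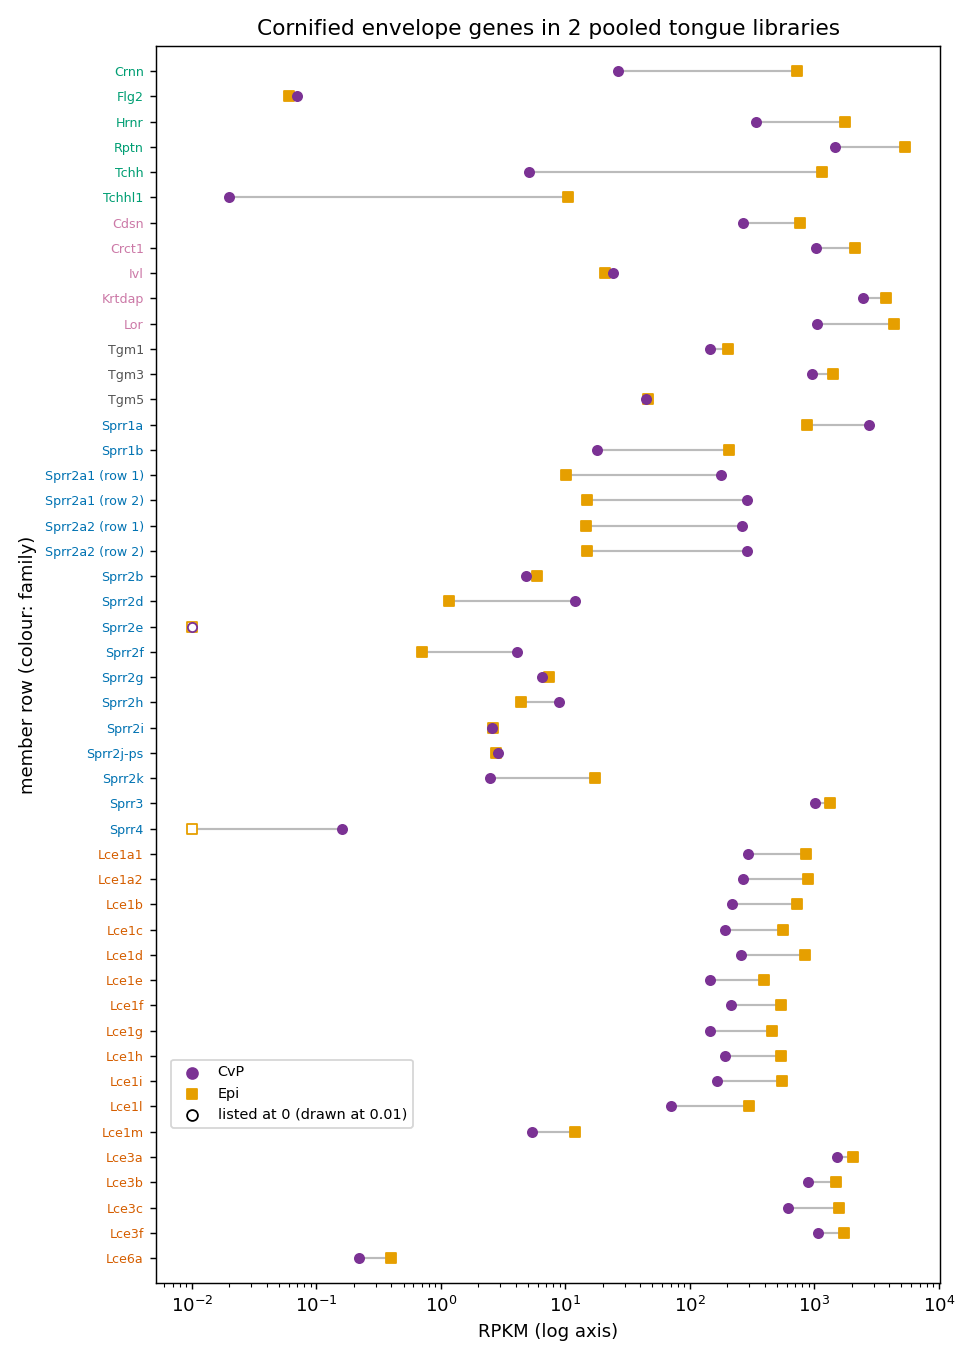
RPKM (log axis) of each of the 48 member rows in CvP (circles) and Epi (squares), with the row names coloured by family and open symbols for rows listed at 0. Most pairs have the square to the right, and the exceptions include *Sprr1a* (2767 in CvP, 866 in Epi) and the *Sprr2a* rows.

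The limits of the study for a gene of the CvP, an RPKM above 10 there and more than 3 times the Epi value, were applied to the deposited values as they stand. They were met by 6 of the 48 rows (12.5%), against 2.35% of all rows. The 6 rows were *Sprr1a*, *Sprr2d* and the 4 *Sprr2a* rows. The same limits in the opposite direction were met by 14 member rows (29.2%), against 0.600% of all rows. They were *Lor*, *Sprr1b*, *Sprr2k*, 6 *Lce1* genes (*Lce1a2*, *Lce1b*, *Lce1d*, *Lce1g*, *Lce1i* and *Lce1l*), *Crnn*, *Hrnr*, *Rptn*, *Tchh* and *Tchhl1*. The ratio limit passed through a run of near values, with *Lce1g* at 3.15-fold and *Sprr1a* at 3.19-fold inside it and *Lce1c* at 2.93-fold and *Lce1a1* at 2.91-fold outside. The split depended on scaling. With each ratio divided by 1.31, 5 members were called higher in CvP and 21 in Epi, and the call of *Sprr1a* ended (CvP/Epi 2.43). With both libraries rescaled to the same summed RPKM the numbers were 7 and 8, and the calls of *Rptn* (CvP/Epi 0.335), *Lce1a2*, *Lce1b*, *Lce1d*, *Lce1g* and *Lce1i* ended. The common sum was 1000000, above the deposited sums of 341140.8 (CvP) and 411512.0 (Epi), while the RPKM limit of 10 was unchanged. The minimum was therefore lower in deposited units, and the added call in CvP was *Sprr2f*, deposited at 4.11 in CvP and 0.710 in Epi.

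**Figure D2:**
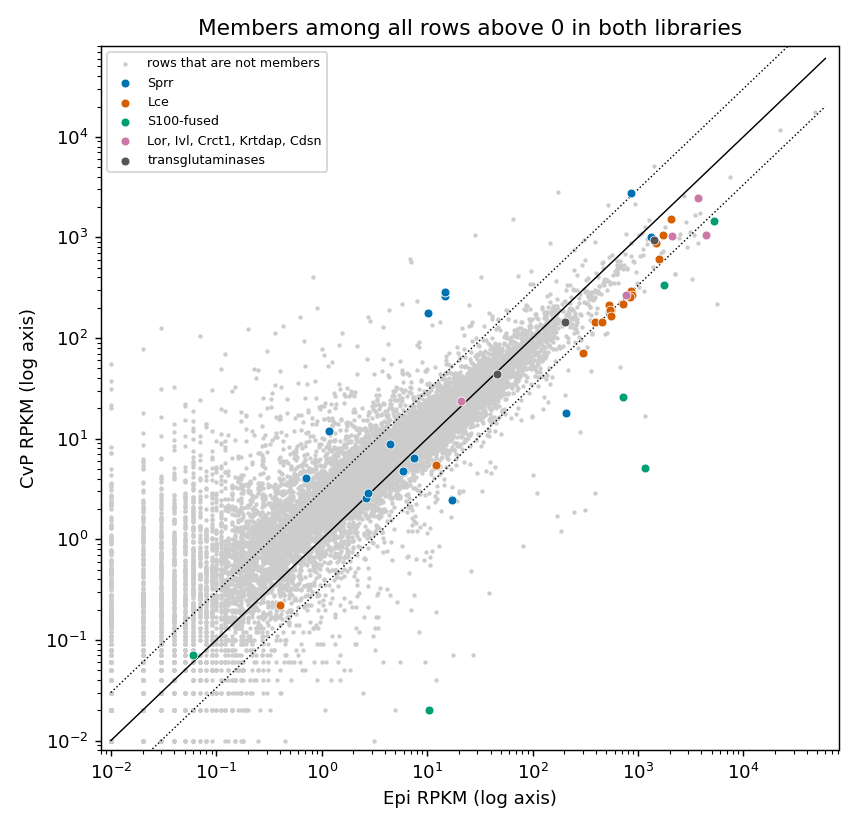
CvP RPKM against Epi RPKM (log axes) for all rows above 0 in both libraries, with members coloured by family, the line of equal values solid and the lines of a 3-fold difference dotted. *Tchh*, *Crnn* and *Sprr1b* lie far below the lower dotted line and the *Sprr2a* rows far above the upper one, while *Lce* rows lie along the lower line.

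High rows in general were more often higher in Epi, so members were also set beside other rows of the same level. Where the geometric mean of both RPKM values was 100 or more, 25 of 26 members (96.2%) were higher in Epi, against 258 of 384 other rows (67.2%). The median log2 ratio there was -1.51 for members and -0.33 for the other rows. *Sprr1a* was the member on the other side. In that range the 3-fold limits in favour of Epi were met by 10 members (38.5%) and 5.47% of other rows, and those in favour of CvP by 1 member (3.85%) and 3.91% of other rows. Between 10 and 100, 3 of 8 members and 33.8% of other rows were higher in Epi, and 4 of the 5 remaining members were *Sprr2a* rows. Between 1 and 10 the numbers were 5 of 9 members and 13.3% of other rows.

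**Figure D3:**
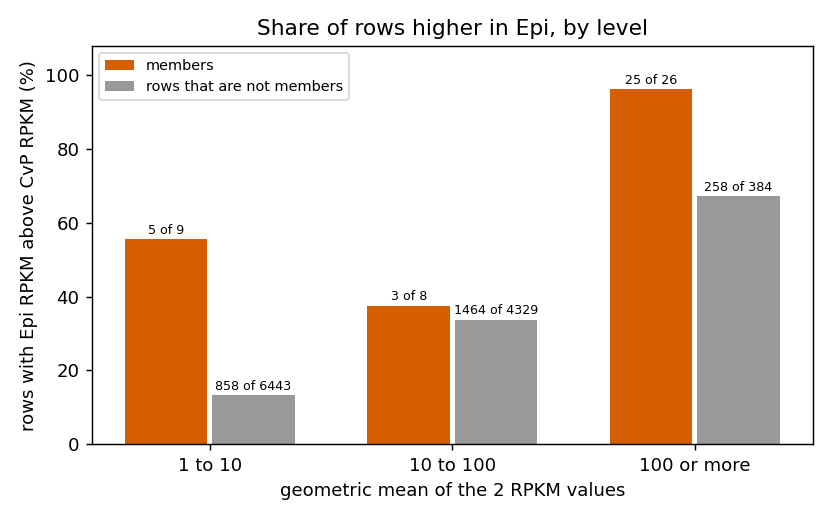
Share of rows with Epi RPKM above CvP RPKM (bars, percent) in 3 ranges of the geometric mean of both values, for members and for rows that are not members, with the counts above the bars. In the highest range 25 of 26 members and 258 of 384 other rows were higher in Epi.

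The S100-fused genes had the largest median difference of the 5 families. *Tchh* encodes trichohyalin, which is cross-linked to keratin filaments in hair root sheaths and filiform papillae. Its RPKM was 5.06 in CvP and 1156 in Epi, a 228-fold difference (95% interval 213 to 245). Intervals are exact Clopper-Pearson intervals from estimated reads and cover counting error only, with no variation between mice. *Tchhl1*, its neighbour and homologue, was at 0.0200 in CvP, which was 1 estimated read, and 10.4 in Epi, a ratio of 520 with an interval of 109 to 24149. *Crnn*, the gene of cornulin of the squamous epithelium of mouth and oesophagus, was at 26.2 in CvP and 719 in Epi, 27.4-fold higher (25.9 to 29.1). *Tchh*, *Tchhl1* and *Crnn* were thus near the floor or low in CvP, while *Hrnr* and *Rptn* were high in both tissues.

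*Hrnr*, encoding hornerin, had an RPKM of 339 in CvP and 1753 in Epi, a 5.17-fold difference. *Rptn*, encoding repetin, had 1468 in CvP and 5290 in Epi, 3.60-fold higher, and was the fifth highest row of the Epi library. *Rptn* made up 79.8% of the summed RPKM of this family in CvP and 59.2% in Epi, and *Tchh* 0.275% in CvP and 12.9% in Epi. *Flg2*, the filaggrin-like gene of cornified skin, was close to 0 in both, at 0.0700 in CvP and 0.0600 in Epi, from 14 and 12 estimated reads. A transcribed region without a gene symbol that lies over the annotated exons of *Flg* is described with the flagged results.

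Some of the envelope genes hold tandem repeats in their coding sequence. Each coding sequence was compared with itself at shifts of 9 to 150 bases in steps of 3. The best shift matched more than 50% of bases in 10 of 46 members (21.7%), against 338 of 22255 coding genes (1.52%). The genes were not matched for coding length, and shifts above 150 bases were not tried. *Hrnr*, at 45.1%, was under the limit, although many windows of its transcript recur in it, as given below. The best shift was 36 bases in *Rptn* (56.9% identical), the only S100-fused gene among the 10, 24 bases in *Sprr1a* (63.0%) and 48 bases in *Sprr1b* (70.5%). *Crnn* (30.5%) and *Tchhl1* (30.8%) were close to the median of all genes, 30.7%. Stretches of 120 coding bases in which the repeat is clearest are shown for the S100-fused gene of highest RPKM and for the *Sprr1* pair, whose members differed in direction. Capitals mark bases equal to the base 1 best shift earlier, which is 36 bases in *Rptn*, 24 in *Sprr1a* and 48 in *Sprr1b*. The printed *Sprr1b* stretch also repeats every 24 bases, so its shift of 48 spans 2 of these units. They are 118 of 120 bases in *Rptn*, 109 in *Sprr1a* and 118 in *Sprr1b*. On NCBI37/mm9 the *Rptn* stretch is chr3:93200593-93200712 on the plus strand, in exon 3 of 3, the *Sprr1a* stretch is chr3:92288312-92288431 on the minus strand, and the *Sprr1b* stretch is chr3:92241188-92241307 on the minus strand, both in exon 2 of 2.
Rptn: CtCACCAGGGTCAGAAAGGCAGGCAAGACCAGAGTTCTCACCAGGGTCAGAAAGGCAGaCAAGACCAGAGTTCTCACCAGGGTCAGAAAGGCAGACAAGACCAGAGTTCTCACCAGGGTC
Sprr1a: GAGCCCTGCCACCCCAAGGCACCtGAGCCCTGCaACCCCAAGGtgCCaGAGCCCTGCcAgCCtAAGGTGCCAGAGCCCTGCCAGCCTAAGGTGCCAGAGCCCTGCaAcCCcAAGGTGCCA
Sprr1b: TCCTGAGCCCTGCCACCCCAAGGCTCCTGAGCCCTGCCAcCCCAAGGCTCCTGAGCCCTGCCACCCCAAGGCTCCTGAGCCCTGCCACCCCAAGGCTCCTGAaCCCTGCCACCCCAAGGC

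With up to 2 mismatches, 16.9% of the 75-base windows of the *Rptn* transcript recurred in the same transcript, as did 70.4% in *Hrnr*, 18.1% in *Tchh*, 33.9% in *Flg2* and 22.0% in *Sprr1b*, and none in *Sprr1a* or *Crnn*. How reads that match several places were counted is not given in the sources used here. No 75-base window of *Rptn*, *Hrnr*, *Tchh*, *Crnn*, *Lor*, *Sprr1a* or *Sprr1b* recurred in another coding gene. Windows were taken only from the longest coding transcript of each member and compared with all coding transcripts of other genes. The rows of *Crnn*, *Lor*, *Sprr1a*, *Sprr1b* and *Rptn* were listed as 1.42 to 3.29 times the length of that longest transcript.

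Loricrin, involucrin and the other precursor or surface proteins differed less. *Lor*, the gene of the glycine-rich loricrin that makes up much of the envelope of skin, had an RPKM of 1052 in CvP and 4379 in Epi, 4.16-fold higher (4.12 to 4.20). It was the sixth highest row of the Epi library. *Ivl*, the gene of the early envelope scaffold involucrin, was low and close to equal, at 23.9 in CvP and 20.8 in Epi (CvP/Epi 1.15, interval 1.06 to 1.24), and its direction turned when ratios were divided by 1.31. *Cdsn*, the gene of the corneocyte adhesion protein corneodesmosin, had 266 in CvP and 763 in Epi, 2.86-fold higher. *Crct1*, encoding a small cysteine-rich protein of the same gene cluster, had 1032 in CvP and 2112 in Epi, 2.05-fold higher. *Krtdap*, a secreted protein of differentiating keratinocytes, had 2458 in CvP and 3728 in Epi, 1.52-fold higher, and was the eighth highest row of both libraries. Of these 5 genes, *Lor* passed the 3-fold limit.

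The cross-linking enzymes were close to even. *Tgm3*, the soluble transglutaminase of terminal differentiation, had an RPKM of 953 in CvP and 1411 in Epi, 1.48-fold higher (1.47 to 1.49). *Tgm1*, the membrane-bound enzyme of keratinocytes, had 145 and 201, 1.39-fold higher in Epi. *Tgm5*, which also acts in the upper epidermis, had 44.1 and 45.9, with an Epi/CvP ratio of 1.04 whose interval, 0.993 to 1.09, held 1 and whose direction turned under rescaling to a common sum. The median log2 ratio of the 3 enzymes was -0.47, against -4.77 for the S100-fused genes and -1.03 for *Lor*, *Ivl*, *Crct1*, *Krtdap* and *Cdsn*.

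The Sprr proteins are short proline-rich cross-bridges between other envelope proteins. Their 17 rows were divided between the tissues. Past an RPKM of 1, 6 of 15 rows were higher in Epi, and the median log2 ratio was 0.98. This median is raised by the *Sprr2a* rows (log2 4.13 to 4.26), which are not separate measurements, as described below. Within *Sprr2* the median was 1.68 with them and 0.02 without them. *Sprr1a* had an RPKM of 2767 in CvP and 866 in Epi, 3.19-fold higher in CvP (3.14 to 3.25), and was the sixth highest row of the CvP library. Its paralogue *Sprr1b* went the other way, with 18.0 in CvP and 207 in Epi, 11.5-fold higher in Epi (10.4 to 12.7). *Sprr3*, the Sprr gene best known from oesophagus, had 1013 in CvP and 1338 in Epi, 1.32-fold higher in Epi. *Sprr1a* therefore made up 57.0% of the summed Sprr RPKM in CvP and 34.5% in Epi, and *Sprr3* 20.9% and 53.4%.

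The *Sprr2* genes included further opposite pairs. *Sprr2d* had an RPKM of 12.0 in CvP and 1.16 in Epi, 10.4-fold higher in CvP (6.70 to 16.9, from 232 and 22 estimated reads). *Sprr2k* had 2.47 in CvP and 17.3 in Epi, 7.0-fold higher in Epi (5.06 to 9.70). *Sprr2f* (4.11 in CvP and 0.710 in Epi) and *Sprr2h* (8.82 and 4.41) were higher in CvP but under an RPKM of 10. *Sprr2b* (4.78 and 5.95), *Sprr2g* (6.45 and 7.43), *Sprr2i* (2.57 and 2.61) and the pseudogene *Sprr2j-ps* (2.88 and 2.77) had near values in both, with counting intervals that held a ratio of 1. *Sprr2e* was listed at 0 in both libraries. *Sprr4* had 1 estimated read in CvP and was listed at 0 in Epi. Without the *Sprr2a* rows the median log2 ratio of the *Sprr2* rows was 0.02.

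*Sprr2a1* and *Sprr2a2* were listed under both symbols at 2 places, chr3:92019757-92026413 and chr3:92054569-92061226 on NCBI37/mm9, 34812 bases apart. At the first place the rows had an RPKM of 179 and 260 in CvP and 10.1 and 14.7 in Epi, both 17.7-fold higher in CvP. At the second place the rows were identical, with 287 in CvP and 14.9 in Epi, 19.3-fold higher (18.3 to 20.3). All 3467 windows of 75 bases in the transcript of either gene recurred within 2 mismatches in another coding gene, and 95.7% recurred exactly. The 4 rows are therefore not 4 separate measurements. With each symbol counted once, 4 member symbols met the limits for the CvP, and without the *Sprr2* rows 1 did.

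The promoters of the *Sprr* genes that differed in direction are shown because members of the same subfamily with opposite ratios share elements in them. The sequences are those of RefSeq on GRCm38.p6, from 250 bases before to 50 after the start of transcription. Capitals mark TGANTCA, in which N is any base, and TATAAA, the TATA box, searched on both strands. TGANTCA, a loose form of the palindromic motif bound by AP-1 factors, is called the AP-1 motif here. A match is a description of letters and not a bound site. *Sprr1a* is chr3:92485832-92486131 on the minus strand, *Sprr1b* chr3:92438730-92439029 on the minus strand, *Sprr2d* chr3:92338890-92339189 on the plus strand and *Sprr2k* chr3:92432332-92432631 on the plus strand.
Sprr1a promoter: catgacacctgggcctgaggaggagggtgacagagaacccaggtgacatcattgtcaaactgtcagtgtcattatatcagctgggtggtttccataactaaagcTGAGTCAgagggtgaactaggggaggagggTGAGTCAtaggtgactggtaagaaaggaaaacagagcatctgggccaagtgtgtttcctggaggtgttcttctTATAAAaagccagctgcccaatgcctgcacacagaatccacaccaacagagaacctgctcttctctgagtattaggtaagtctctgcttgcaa
Sprr1b promoter: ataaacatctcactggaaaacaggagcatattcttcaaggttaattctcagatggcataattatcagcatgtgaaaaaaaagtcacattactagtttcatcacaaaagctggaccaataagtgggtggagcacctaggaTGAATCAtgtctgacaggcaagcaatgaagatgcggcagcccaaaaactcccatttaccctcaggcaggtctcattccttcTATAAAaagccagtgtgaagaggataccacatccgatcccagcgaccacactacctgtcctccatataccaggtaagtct
Sprr2d promoter: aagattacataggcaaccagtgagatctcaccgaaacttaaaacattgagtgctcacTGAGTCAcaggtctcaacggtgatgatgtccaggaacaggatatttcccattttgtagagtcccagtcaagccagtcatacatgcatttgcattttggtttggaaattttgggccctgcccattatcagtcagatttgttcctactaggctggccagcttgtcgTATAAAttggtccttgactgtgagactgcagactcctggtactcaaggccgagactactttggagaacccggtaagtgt
Sprr2k promoter: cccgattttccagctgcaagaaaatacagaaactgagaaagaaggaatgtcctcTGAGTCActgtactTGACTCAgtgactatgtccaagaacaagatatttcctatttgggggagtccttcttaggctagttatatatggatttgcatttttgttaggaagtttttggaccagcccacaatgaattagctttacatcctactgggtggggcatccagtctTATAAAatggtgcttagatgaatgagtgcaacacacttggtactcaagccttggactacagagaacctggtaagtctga

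*Sprr1a*, higher in CvP, held 2 AP-1 motifs, 146 and 116 bases before the start, and *Sprr1b*, higher in Epi, held 1 at 111 bases. The *Sprr1b* match was TGAATCA, and the others shown were TGAGTCA or TGACTCA. *Sprr2d*, higher in CvP, held 1 at 193 bases, and *Sprr2k*, higher in Epi, held 2 at 196 and 182 bases. The larger number was thus in the gene higher in CvP in the *Sprr1* pair and in the gene higher in Epi in the *Sprr2* pair. *Sprr2a1* and *Sprr2a2*, higher in CvP, held neither TGANTCA nor TATAAA. A link between motifs and direction was not tested. Promoters were found for 42 of the 46 member symbols (44 promoters). TGANTCA was in 16 of the 44 (36.4%) and in 7.81% of all 32851 promoters of that length, and TATAAA was in 20 (45.5%) and in 13.6% of all. CACCC, a motif of Klf factors that overlaps neither, was in 24 (54.5%) and in 57.5% of all. The AP-1 motif was in both *Sprr1* genes, in all 7 *Sprr2* genes other than *Sprr2a1* and *Sprr2a2* that had a promoter, in 4 of 6 S100-fused genes and in 3 of 4 of *Lor*, *Ivl*, *Krtdap* and *Cdsn*. It was in none of the 15 *Lce1* and *Lce3* promoters, which says only that these letters were not in that window. In the *Sprr2* genes its first match lay 193 to 198 bases before the start.

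The Lce proteins are small cysteine-rich and glycine-rich precursors that join the envelope late. All 17 *Lce* rows were higher in Epi, *Lce6a* on few reads. The 16 rows past an RPKM of 1 had a median log2 ratio of -1.52, and 21.8% of all rows past that limit were higher in Epi. The *Lce3* genes had the higher levels and, by the median of the log2 ratios, the smaller difference, -0.73 against -1.65 for the 11 *Lce1* genes other than *Lce1m*. *Lce3a* had an RPKM of 1512 in CvP and 2046 in Epi, 1.35-fold higher, and *Lce3c* 609 and 1570, 2.58-fold higher. *Lce3b* (888 and 1491, 1.68-fold) and *Lce3f* (1059 and 1726, 1.63-fold) lay between them. None of the 4 *Lce3* genes passed the 3-fold limit.

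The 11 *Lce1* genes other than *Lce1m* had RPKM values from 70.9 to 293 in CvP and from 300 to 884 in Epi. Their Epi/CvP ratios fell in a narrow range, from 2.48 for *Lce1f* (2.39 to 2.57) to 4.23 for *Lce1l* (3.99 to 4.49). *Lce1a2* was the highest of them in Epi, at 266 in CvP and 884 in Epi, 3.33-fold higher. *Lce1a1* had 293 and 851 (2.91-fold), *Lce1d* 258 and 836 (3.24-fold) and *Lce1b* 217 and 720 (3.32-fold). *Lce1c* had 191 and 559 (2.93-fold), *Lce1i* 166 and 551 (3.32-fold), *Lce1h* 191 and 538 (2.82-fold) and *Lce1f* 215 and 534. *Lce1g* had 146 and 458 (3.15-fold), *Lce1e* 145 and 391 (2.69-fold) and *Lce1l* 70.9 and 300. *Lce1m*, set apart from the others beside *Crct1*, was low, with 5.43 in CvP and 12.0 in Epi (2.21-fold, 1.80 to 2.73). *Lce6a* was at 0.220 in CvP and 0.400 in Epi, from 5 and 9 estimated reads, with a CvP/Epi interval of 0.144 to 1.82 that held 1.

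Reads of 1 *Lce* gene could match another, and since the counting of such reads is not given, the *Lce* ratios may not be independent of each other. In the 11 *Lce1* genes, 14.6% (*Lce1l*) to 49.3% (*Lce1i*) of the 75-base windows recurred within 2 mismatches in another coding gene, and in the *Lce3* genes 36% to 48.4%. No window of *Lce1m* or *Lce6a* did. The windows shown are those held by the most genes of each subfamily among the windows that were scored. These were windows of *Lce1a1* and *Lce1a2* for *Lce1* and of *Lce3a* for *Lce3*, and those of the other genes were not scored. The *Lce1a1* window is coding sequence of exon 2 of 2, chr3:92450673-92450747 on the minus strand of NCBI37/mm9. It was found within 2 mismatches in 8 of 12 *Lce1* genes and exactly in 3. That of *Lce3a* is coding sequence of exon 2 of 2, chr3:92729465-92729539 on the minus strand, and was found exactly in all 4 *Lce3* genes.
Lce1 window: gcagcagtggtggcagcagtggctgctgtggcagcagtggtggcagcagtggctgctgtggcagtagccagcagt
Lce3 window: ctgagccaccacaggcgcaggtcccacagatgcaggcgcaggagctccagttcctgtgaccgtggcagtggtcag

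On chromosome 3 the members ran from *Lor* to *Tchhl1*, 91884193 to 93275902 on NCBI37/mm9, a span of 1391710 bases with 43 of the 48 member rows. All 6 members called higher in CvP lay in the *Sprr* stretch. *Sprr1b* ended 45174 bases before *Sprr1a* began, and only 2881 bases separated *Sprr2k* from *Sprr1b*, which were both higher in Epi. The S100-fused genes lay together at the far end, both those with the largest ratios and *Hrnr*, *Rptn* and *Flg2*. The median log2 ratio was -1.31 for the 39 members of this cluster past an RPKM of 1 and -0.57 for the 5 members on other chromosomes (*Tgm1*, *Tgm3*, *Tgm5*, *Cdsn* and *Krtdap*), of which all were higher in Epi and none passed the 3-fold limit.

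**Figure D4:**
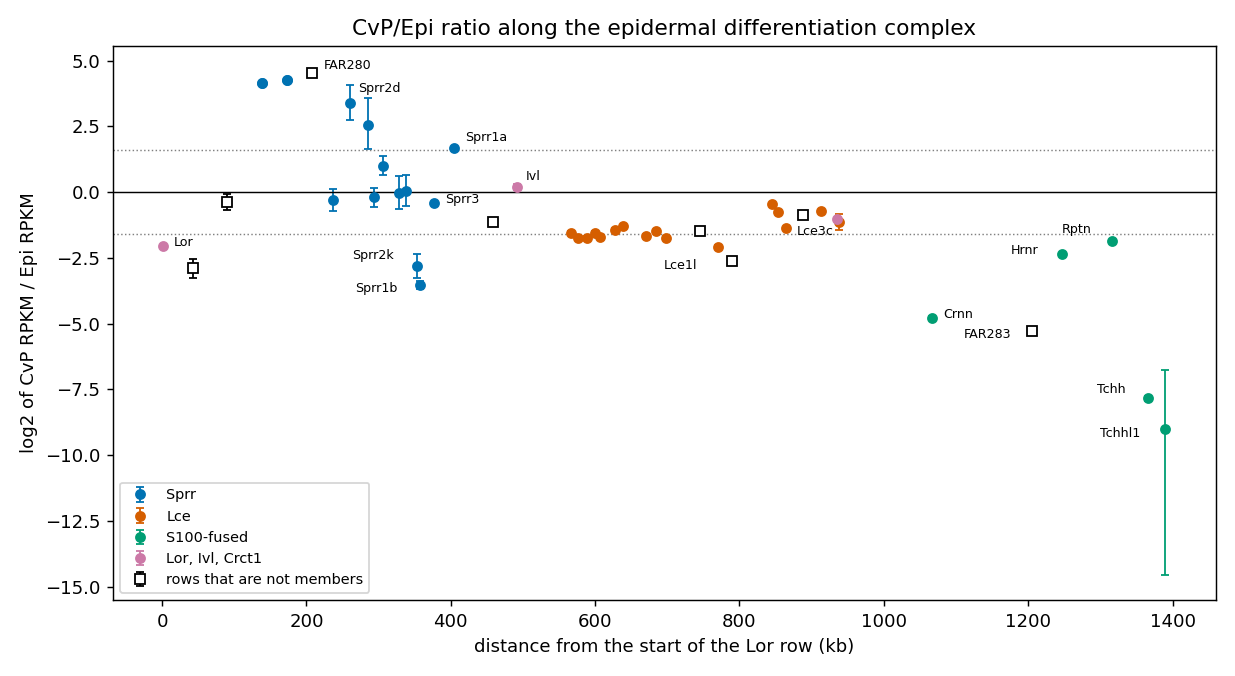
Log2 of the CvP/Epi ratio of RPKM for rows of the cluster on chromosome 3 that reached an RPKM of 1 in one library or both, by distance in kb from the start of the *Lor* row, with 95% counting intervals, members coloured by family, other rows as open squares, and dotted lines at a 3-fold difference. *Sprr* rows lie on both sides of 0, *Lce* rows all lie below it, and *Tchhl1*, *Tchh*, the region FAR283 and *Crnn* lie lowest on the right.

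Other genes of envelope assembly were read from lists. Of 19 further envelope and desmosome proteins past an RPKM of 1, 15 were higher in Epi and 4 in CvP. *Dsc1* (113 in CvP and 512 in Epi), *Dsg1a* (82.1 and 326) and *Krt10* (47.2 and 355), which belong to desmosomes and filaments of differentiated keratinocytes, were called higher in Epi. *Anxa1*, an annexin found in envelopes, was called higher in CvP, at 2835 in CvP and 174 in Epi. Of 15 proteases, deiminases and inhibitors, 10 were higher in Epi, with the kallikrein *Klk5* (2.90 and 19.9) and the deiminase *Padi1* (10.8 and 36.9) called. Of the other transglutaminases, 3 passed an RPKM of 1, were higher in CvP and were not called.

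Of 26 transcription regulators of epidermal differentiation past an RPKM of 1, 11 were higher in CvP and 15 in Epi. *Elf3* (90.5 in CvP and 8.32 in Epi), *Pou2f3* (19.5 and 3.49) and the AP-1 gene *Fos* (10.4 and 3.19) were called higher in CvP, and *Maf* (3.03 and 33.4) in Epi. *Pou2f3* is also a factor of taste cells, and the part of taste cells in these values was not tested. Levels of different genes can be compared only roughly here, because RPKM was divided by listed lengths that often exceeded the annotated transcript. The listed length was 0.953 to 5.32 times the transcript in members and up to 8.11 times in the regulators (*Hopx*).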

How the data were processed

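Poly(A) RNA libraries of 1 CvP pool and 1 Epi pool were sequenced as single-end reads of 75 bp. The authors mapped the reads with Bowtie (version 0.12.7) to NCBI37/mm9 and deposited RPKM values from ERANGE with the length of each row. The annotation and the counting of reads with several matches are not given in the sources used here. The deposited CvP/Epi ratios were not used.

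Depth was read from the steps between the lowest RPKM values, where 96.4% (CvP) and 97.4% (Epi) of 331 and 308 values were whole reads within 0.1. Reads per row were estimated from the listed length or, where shorter, the longest coding transcript in GENCODE M1. They gave 95% exact (Clopper-Pearson) intervals of ratios, for counting error only, and a row at or under 3 reads was taken to be at the floor. Medians used log2(RPKM + 0.1), which understates changes of low genes. Every member row above an RPKM of 10 was named with both values, and of the lists of other envelope genes, the rows called, at most 3 per direction. The members and lists were chosen with earlier results of these data known. Keratins, regions without a gene and other rows of the cluster named outside this rule were chosen after their values were seen. The scripts were tested on simulated data. Python 3.11.15, numpy 2.4.6, pandas 2.3.3, scipy 1.17.1 and matplotlib 3.10.9 were used. Alternatives were other minimums, folds, pseudocounts, scalings and choices of rows.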

Additional observations from a re-analysis of the deposited data

Results flagged for a closer look

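Transcribed regions that carry no gene symbol stood outside the comparison of members, and 2 of them lay over annotated genes of the same families. Region FAR280 (chr3:92092143-92093057 on NCBI37/mm9, 915 bases) had an RPKM of 1516 in CvP and 66.0 in Epi, 23.0-fold higher in CvP (21.9 to 24.2), and 62.0% of its bases were exon of *Sprr2a3*, a gene with no row under its symbol. Region FAR283 (chr3:93081475-93097648, 16174 bases) had an RPKM of 2.87 in CvP and 111 in Epi, 38.8-fold higher in Epi (34.9 to 43.2), and 51.7% of its bases were exon of *Flg* models, of both coding and pseudogene type. A further 5.77% were exon of *Rplp0-ps1*, a pseudogene of a ribosomal protein gene. The listed length of FAR283 was 4.321 kb, so these shares of the span need not hold for the bases counted in its RPKM. The strand of both regions was not given. The ratio of FAR280 is near those of the *Sprr2a* rows. That of FAR283 lies between those of *Hrnr* and *Tchh*, S100-fused members of the cluster. Whether the reads arose from *Sprr2a3*, *Flg* or *Rplp0-ps1* was not tested. No group had 4 or more samples, so outlying libraries could not be looked for.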

How the results depend on the processing

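No paired analysis was possible because 1 pooled library stood for each tissue. For the same reason no library could be left out. The 6 member rows called higher in CvP became 1 without the *Sprr2* rows. The 14 called higher in Epi became 23 at a minimum fold of 2, 6 at a fold of 5, 8 with RPKM rescaled to a common sum and 8 without the *Lce* rows. Division by the median ratio made the calls 5 and 21, so that the share of member calls that were higher in CvP was 30.0% as deposited, 19.2% after division and 46.7% after rescaling (79.7%, 63.6% and 92.4% over all rows). The rescaled shares also rest on a lower minimum, since the limit of 10 was applied to values raised by the rescaling. Over all rows, 1382 were then called higher in CvP, against 435 as deposited. The rescaled shares therefore cannot be set directly beside the others. The other minimums and pseudocounts kept both counts within 1.5 times. The median log2 ratio, -1.08, was -1.09 with no pseudocount, -1.02 with a pseudocount of 1, -0.73 with no filter, -1.40 with a filter at RPKM 10, -1.47 after subtraction of the median, -0.82 after rescaling, -1.22 with each symbol once, -1.51 without the *Sprr2* rows and -0.36 without the *Lce* rows, and was below 0 under each. Among the 38 member rows above an RPKM of 10, the direction turned for *Tgm5* on rescaling and for *Ivl* on division by the median, and for no other row. Beyond the construction of each alternative, the cause of these shifts was not tested. Depth limits rows with few reads, such as *Tchhl1* with 1 read in CvP and *Sprr2d* with 22 in Epi, and variation between mice could not be estimated.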

Other observations

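The cluster on chromosome 3 held 12 rows that were not members, of which 10 were higher in Epi, as were 3909 of all 18498 rows. Of those 10, *Gm4858* (0 reads in CvP and 1 in Epi, as estimated), *Lelp1* (3 and 10) and FAR279 (4 and 14) rested on few reads. FAR280 and *Smcp* were higher in CvP. *Kprp*, the gene of a keratinocyte proline-rich protein, had an RPKM of 182 in CvP and 510 in Epi, 2.81-fold higher (2.75 to 2.86). *Prr9* had 2.37 and 17.7, 7.46-fold higher in Epi (5.86 to 9.49), and *2310050C09Rik*, between *Lce1l* and the *Lce3* genes, had 23.1 and 142, 6.13-fold higher (5.65 to 6.65). Region FAR281, which overlapped no annotated exon, had 111 and 247, and region FAR282, over part of *2310001H18Rik*, had 143 and 264. *Smcp*, encoding a protein of sperm mitochondria, lies among these genes and was at 0.160 in CvP and 0.0400 in Epi.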
